A study of Mus musculus with 29 samples.

Results

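The 10 genes described here are Fos, Fosb, Fosl2, Jun, Junb, Jund, Ier2, Egr2, Nr4a2 and Klf6, which encode subunits of the transcription factor AP-1 and other products of the immediate early response. They were picked by gene symbol out of the 54838 genes of the deposited table, and the choice was made with earlier results of these data known. Each was followed in 29 single spleen cells of OT-1 mice, a strain whose transgenic T cell receptor recognises an ovalbumin (OVA) peptide on class I MHC. The labels call all of the cells T cells. In 21 of them the interaction was with an antigen-presenting cell (APC) presenting OVA, and in the other 8, the nothing cells, with an APC presenting nothing. Both groups carry the same receptor transgene, were sampled after 3 h, and were amplified by SMART-seq2, which copies full-length cDNA from 1 lysed cell per tube. No mouse, age, culture or day is labelled, so each group counts as 1 sample of unknown makeup and no test was made. Cells are numbered within a group only as names.

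Values are TPM, transcript abundances scaled for length and to a fixed total per cell, and a gene was called detected in a cell at a TPM of at least 1. The read depth of each library is unknown, since TPM keeps no read number. The number of genes detected ran from 233 to 4180 (median 855) in OVA cells and from 92 to 6385 (median 795) in nothing cells. ERCC spike-ins, synthetic RNAs added to the lysate, took 5.58% to 97.7% of the TPM in OVA cells and 14.8% to 99.4% in nothing cells, and they are part of the total. Of all gene entries 97.3% were exactly 0, including genes that every cell uses, so a 0 is described as listed at 0 and not as absence.

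Markers of the labelled cell type were found in a minority of cells. At least 1 of 14 T cell markers was detected in 10 of the 21 OVA cells, against 3 of the 8 nothing cells, and a T cell receptor constant gene only in OVA cells 5, 9, 13 and 16 among all 29. At least 1 of 11 neutrophil markers was detected in 15 of the 21 OVA cells, against 5 of the 8 nothing cells, with a summed level of 0 to 20551 TPM and 0 to 4016 TPM. These markers were highest in number in OVA cell 8, with 10 of 11. Olfactory and vomeronasal receptor genes, which a lymphocyte is not known to use, gave a measure of background. Their detected share divided by that of all other protein-coding genes was 0.572 ± 0.273 in OVA cells (SD over 21 cells) and 0.981 ± 0.238 in nothing cells (SD over 8 cells). It was highest in nothing cell 4, at 1.33, and lowest in OVA cell 8, at 0.0318.

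Immediate early genes are transcribed within minutes of a stimulus by factors that the resting cell already holds, among them SRF with its TCF partners, CREB and MEF2, and need no new protein. Their messengers are short-lived. AP-1 is a dimer: Jun proteins pair with each other or, more stably, with a Fos protein, while Fos proteins need a partner such as Jun. In T cells the receptor signals through Ras and MAP kinases to AP-1 and through calcineurin to NFAT, and both factors meet at target genes such as Il2.

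The windows before the start sites of Fos, Jun, Junb and Egr2 are shown because they hold the kinds of element through which such stimuli are known to act. Each is the 250 bases before the RefSeq start on GRCm38.p6, on the gene's own strand. The windows are chr12:85473640-85473889 (plus strand) for Fos, chr4:95052223-95052472 (minus) for Jun, chr8:84978749-84978998 (minus) for Junb and chr10:67537619-67537868 (plus) for Egr2. Capitals mark the motif matches described in the next paragraph.
Fos: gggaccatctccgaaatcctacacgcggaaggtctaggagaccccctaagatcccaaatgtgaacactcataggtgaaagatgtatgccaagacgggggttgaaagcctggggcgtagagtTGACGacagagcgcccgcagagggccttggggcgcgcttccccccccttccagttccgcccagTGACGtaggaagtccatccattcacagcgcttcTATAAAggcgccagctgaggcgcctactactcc
Jun: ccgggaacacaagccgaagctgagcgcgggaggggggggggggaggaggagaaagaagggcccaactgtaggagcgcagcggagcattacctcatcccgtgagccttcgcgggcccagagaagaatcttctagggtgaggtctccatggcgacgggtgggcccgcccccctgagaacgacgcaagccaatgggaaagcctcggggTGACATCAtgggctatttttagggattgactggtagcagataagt
Junb: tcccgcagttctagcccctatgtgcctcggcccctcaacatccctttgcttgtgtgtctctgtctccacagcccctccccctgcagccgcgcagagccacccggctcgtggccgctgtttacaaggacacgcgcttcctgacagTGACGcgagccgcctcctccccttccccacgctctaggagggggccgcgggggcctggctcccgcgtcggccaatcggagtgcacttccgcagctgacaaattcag
Egr2: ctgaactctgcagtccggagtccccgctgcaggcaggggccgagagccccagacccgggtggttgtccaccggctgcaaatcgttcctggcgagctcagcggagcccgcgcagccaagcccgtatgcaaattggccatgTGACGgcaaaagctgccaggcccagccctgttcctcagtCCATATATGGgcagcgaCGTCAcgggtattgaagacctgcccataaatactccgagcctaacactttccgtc

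In the Fos window TGACG, the core of a cAMP response element (CRE), lay 129 and 66 bases before the start, and the TATA box TATAAA lay 33 bases before it. The Jun window held TGACATCA, an element resembling the AP-1 site and known from this promoter, 45 bases before the start. The Junb window held 1 TGACG, 106 bases before the start. The Egr2 window held a CArG box, the sequence that SRF binds, 72 bases before the start, with TGACG 111 bases before the start and, on the opposite strand, 55 bases before it. The Egr2 gene has 5 listed starts, the one shown lying inside its GENCODE span, and a window at another of them held a second, different CArG match.

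RefSeq windows were found for 9 of the 10 genes, Ier2 being without one. The Jund window ends 1210 bases before the GENCODE start of Jund. Both strands were searched. TGACG was present in 5 of the 9 (Fos, Fosb, Junb, Egr2, Nr4a2), against 19.8% of all 27025 genes with a window. A gene was counted when any of its windows held the motif. The full CRE TGACGTCA, which contains TGACG, was in 0 of 9 (1.77% of all genes), and the AP-1 site TGANTCA was in 0 of 9 (7.82%). TGACATCA was in 2 of 9 (Jun, Klf6, against 3.41%) and a CArG box in 1 of 9 (Egr2, against 1.62%). TATAAA was in 2 of 9 (Fos, Nr4a2, against 14.3%) and the EGR site GCGNGGGCG in 3 of 9 (Fosb, Fosl2, Nr4a2, against 5.33%). These are letter matches only, and no binding was measured. Bases outside the windows and MEF2 sites were not searched. A motif missing from a window can therefore still lie elsewhere near the gene, as for the CArG box of Fos.

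The genes lie on 8 chromosomes of GRCm38 in GENCODE M21, with Junb, Jund and Ier2 sharing chromosome 8. Jun, Jund and Ier2 have 1 exon each, so for them a read from genomic DNA looks like a read from the transcript. Jun spans chr4:95049034-95052222 and overlaps the antisense gene Junos. Jund spans chr8:70698949-70700616 and overlaps the antisense gene Gm11175, and Junb spans chr8:84974484-84978718 and overlaps Prdx2 on the other strand. Whether counting used the strand is not stated, so reads in these overlaps cannot be told apart.

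Across the 10 genes and 29 cells, 51 of 290 values were detected. They ran from 1.03 to 114 TPM with a median of 7.26, 21 of them under 5 TPM and 14 above 20 TPM. Another 4 values lay above 0 but under 1 TPM. Of the 51 detected values 21 stood above the 50th percentile of the genes detected in the same cell, so these transcripts mostly sat among the middle and lower levels of their libraries.

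**Figure D1:**
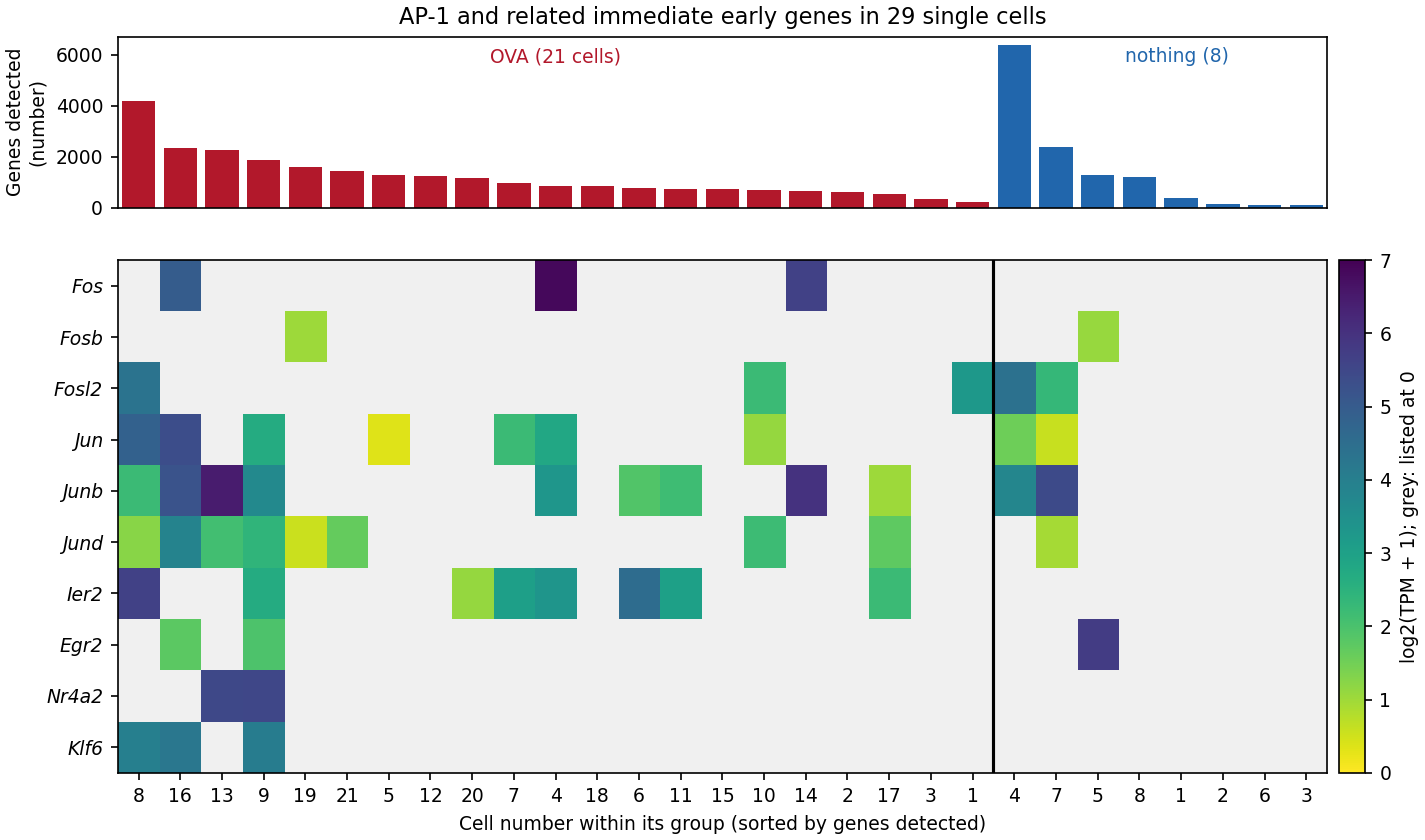
Each column is 1 cell, ordered within OVA and nothing by genes detected. The colour gives log2(TPM + 1) of each of the 10 genes, with grey for values listed at 0, and the bars above give the number of genes detected. Coloured entries gather in OVA cells with many genes, and 5 of the 8 nothing columns are grey throughout.

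Among the Fos family, Fos, the founding partner of Jun, was detected only in OVA cells 4 (114 TPM), 14 (48.6 TPM) and 16 (30.4 TPM) and was listed at 0 in every other cell. In OVA cell 4 Fos stood at the 88.3 percentile of detected genes. Fos was thus rare but high where present. Rescaled to a total without spike-ins, these values were 659, 710 and 33.7 TPM, so that OVA cell 14 came first. The share was 3 of the 21 OVA cells (14.3%, Clopper-Pearson 95% interval 3.05% to 36.3%), against 0 of the 8 nothing cells (upper limit 37.5%). These intervals cover counting error only.

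Fosb, a close relative of Fos, was detected at 1.04 TPM in OVA cell 19 and 1.12 TPM in nothing cell 5, just past the detection limit. Fosl2, which encodes FRA2, a Fos protein without the strong activation domain of Fos, reached 19.2 TPM in OVA cell 8, 8.63 in cell 1 and 3.69 in cell 10 of that group. In nothing cells Fosl2 stood at 19.8 TPM in cell 4 and 4.04 TPM in cell 7. The Fosl2 levels of the detecting cells overlapped between groups, and no cell held both Fos and Fosl2.

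In the Jun family, Junb was the most widely detected of the 10 genes, in 9 of the 21 OVA cells (42.9%, 21.8% to 66.0%), against 2 of the 8 nothing cells (25.0%, 3.19% to 65.1%). JUNB is a Jun protein with weaker activation than JUN in many settings. Its transcript ran from 1.03 TPM in OVA cell 17 to 87.2 in cell 13, with 61.3 in cell 14 and 35.9 in cell 16. The other OVA values of Junb were 12.1 TPM in cell 9, 8.94 in cell 4, 3.72 in cell 8, 3.54 in cell 11 and 2.71 in cell 6. In nothing cells Junb stood at 41.9 TPM in cell 7 and 12.7 in cell 4. The 2 nothing values fell inside the range of the OVA values. Without spike-ins in the total, the highest Junb values were 895 and 123 TPM, in OVA cells 14 and 13, and nothing cell 7 had 67.3 TPM.

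Jun, the archetypal AP-1 subunit, was detected in 6 OVA cells, at 39.7 TPM in cell 16, 27.2 in cell 8, 5.92 in cell 4, 5.45 in cell 9, 3.70 in cell 7 and 1.17 in cell 10. The single detecting nothing cell was cell 4, at 1.92 TPM, with a further 0.516 TPM in cell 7. Jund encodes the Jun protein known for steady expression in resting cells. It was detected in 7 OVA cells, at 13.5 TPM in cell 16 and between 1.39 and 4.32 TPM in the other detecting cells. In nothing cells Jund reached only 0.928 TPM, in cell 7, just under the detection limit, and the share of 0 of 8 allows up to 37.5%.

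Ier2, an immediate early gene for a small nuclear protein, was detected in 8 of the 21 OVA cells (38.1%, 18.1% to 61.6%) and listed at 0 in all 8 nothing cells. Ier2 stood at 48.7 TPM in OVA cell 8, 22.1 in cell 6, 9.20 in cell 4, 7.26 in cell 7, 7.11 in cell 11, 5.45 in cell 9, 3.69 in cell 17 and 1.14 in cell 20. Most Ier2 values were thus below 10 TPM. Egr2 encodes a zinc finger factor that T cell receptor signals are known to induce. It was detected at 53.4 TPM in nothing cell 5, whereas OVA cells 9 and 16 had 2.87 and 2.40 TPM, so its highest level was in a nothing cell. Nr4a2, an orphan nuclear receptor of the NUR77 family, was detected at 45.0 TPM and 43.3 TPM in OVA cells 9 and 13. Klf6, a Krüppel-like zinc finger factor, was detected at 17.9 TPM in OVA cell 16, 15.5 in cell 9 and 14.9 in cell 8. Both were listed at 0 in every nothing cell.

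Ordered by mean TPM over the 29 cells, Junb was highest at 9.35 ± 21.0 (SD), followed by Fos at 6.66 ± 23.2, Ier2 at 3.61 ± 9.84 and Nr4a2 at 3.04 ± 11.4. Jun (2.96 ± 8.75), Egr2 (2.02 ± 9.91), Fosl2 (1.91 ± 5.20), Klf6 (1.66 ± 5.01), Jund (1.10 ± 2.69) and Fosb (0.0746 ± 0.279) came after. No neighbours in this order differed by more than their SD over cells, which is the spread of single cells and not the error of a mean.

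Between the groups, 7 of the 10 genes had a higher mean log2(TPM + 1) in OVA cells and 3 a lower one. For all 10 the difference was smaller than the SD over cells, which is the spread of single cells and not the error of a group mean. Over all 19897 genes with any value, 54.8% lay above 0 and 45.2% below. Ier2 differed most, by 1.22 (pooled SD 1.54), followed by Fos at 0.83 (1.81), Jun at 0.65 (1.46), Jund at 0.63 (0.99), Klf6 at 0.58 (1.26), Nr4a2 at 0.52 (1.42) and Junb at 0.37 (2.18). Fosb was at -0.09 (0.27), Fosl2 at -0.37 (1.34) and Egr2 at -0.54 (1.14). This scale understates differences of low genes.

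The median difference of the 10 genes was 0.55, beside 0.05 over all genes with any value and 0.10 over the 3717 genes that at least 3 cells held. That last value was 0.36 without nothing cell 4, 0.05 without OVA cell 8 and -0.24 in cells with at least 500 genes, where the median of the 10 was 0.53. Of the 10 genes 8 passed that filter, and Fosb and Nr4a2 did not. The background median was higher with wider detection, at 1.14 over genes detected in at least 10 cells. Of the 10 genes only Junb, at 0.37, was detected that widely. No median over genes detected in as many cells as each of the 10 was computed. A difference of at least 1 was reached upward by 1 gene, Ier2, where 9.31% of the 3717 genes reached it, and downward by 0 genes, where 6.62% did. Without OVA cell 8, the cell with 10 neutrophil markers, the Ier2 difference was 0.998, under that limit, and with a pseudocount of 10 it was 0.38. With size factors 4 of the 10 reached 1, namely Fos (1.06), Jun (1.32), Junb (1.52) and Ier2 (1.68), where 18.4% of the 3717 genes did. In cells with at least 500 genes Fosl2 (-1.33) and Egr2 (-1.25) reached -1, where 23.5% did. The median of the 10 was 0.34 without OVA cell 9.

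Detection confined to the OVA cells held for Fos, Jund, Ier2, Nr4a2 and Klf6, 5 of the 10 genes. With 21 cells against 8, this was frequent: 32.6% of the 7682 genes detected in at least 2 cells showed it. Among the 122 genes detected in exactly 8 cells, as Ier2 was, 18.9% did so.

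The lower means of Fosl2 and Egr2 each rested on single cells. Without nothing cell 4 the Fosl2 difference was 0.14, and without nothing cell 5 that of Egr2 was 0.18 and that of Fosb 0.05. The Junb difference was 0.98 without nothing cell 7 and 0.13 without OVA cell 13. The Fos difference was 0.53 without OVA cell 4, that of Jun 0.43 without OVA cell 16, and that of Nr4a2 0.27 without OVA cell 9 and 0.28 without OVA cell 13. Each of these transcripts was held by few cells.

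The scaling also moved these values. With TPM rescaled without spike-ins the Ier2 difference was 1.90 and that of Fos 1.14, and the median over the 3717 genes was 0.25. With size factors from 11 widely detected genes the median over the 3717 genes was 0.48, Junb stood at 1.52 and Fosl2 at 0.42. Relative to that shift Ier2 was 1.20 higher, Junb 1.04 higher and Fosl2 -0.06. In cells with at least 500 genes detected the Junb difference was -0.62 and the Fosl2 difference -1.33, while Ier2 stayed at 1.35.

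**Figure D2:**
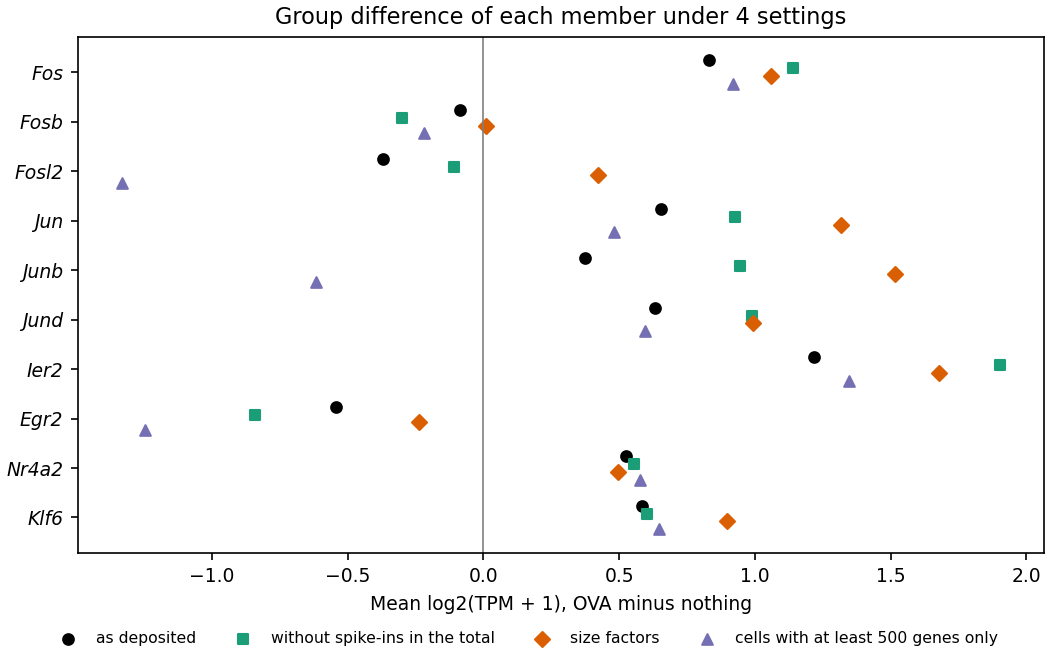
Each row is 1 of the 10 genes and each marker the mean log2(TPM + 1) of OVA cells minus that of nothing cells, under the values as deposited, without spike-ins in the total, with size factors, and in cells with at least 500 genes only. Ier2 lies above 1 in all 4 settings shown, whereas the markers of Fosb, Fosl2 and Junb fall on both sides of 0.

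Counted per cell, OVA cells held 2.1 ± 2.14 of the 10 genes (SD over 21 cells, median 2, range 0 to 7) and nothing cells 0.875 ± 1.25 (SD over 8 cells, median 0, range 0 to 3). At least 1 was detected in 15 of the 21 OVA cells (71.4%, 47.8% to 88.7%), against 3 of the 8 nothing cells (37.5%, 8.52% to 75.5%), and the intervals overlap. At least 4 were detected in 4 of the 21 OVA cells (19.0%), against 0 of the 8 nothing cells (upper limit 37.5%). OVA cell 9 held 7, OVA cells 8 and 16 held 6 each, and OVA cell 4 held 4.

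The group difference in this count was smaller without the poorest libraries. All 4 nothing cells under 500 genes held 0 of the 10, as did 1 of the 2 OVA cells under 500 genes. Among cells with at least 500 genes, at least 1 of the 10 was detected in 14 of the 19 OVA cells (73.7%, 48.8% to 90.9%), against 3 of the 4 nothing cells (75.0%, 19.4% to 99.4%). The difference of the means was 1.22 over all cells, 0.513 in cells with at least 500 genes and 0.625 without the cells over 90% spike-ins. Without the cells over 2000 genes it was 1.28. By number of genes detected, OVA cells held 1.58 and nothing cells 0 of the 10 under 1000 genes, 1.67 and 1 between 1000 and 2000 genes, and 5 and 2.5 above 2000 genes. Within the first of these bands the OVA cells had 233 to 976 genes and the nothing cells 92 to 373, and the 2 higher bands hold 2 nothing cells each.

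Across the 29 cells cells with more genes detected also held more of the 10 genes (Spearman 0.54, Pearson 0.55 on log10 gene number), a description, since both numbers come from the same library. Without nothing cell 4 and OVA cell 8 the coefficients were 0.46 and 0.48. Within groups the Spearman coefficient was 0.38 over the 21 OVA cells and 0.87 over the 8 nothing cells. Between the spike-in share and the number of the 10 genes held it was -0.59 over all cells. The 4 OVA cells with most genes (1850 to 4180) carried 22 of the 44 OVA detections. Nothing cell 4, with the most genes of all cells, held only Fosl2, Jun and Junb.

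**Figure D3:**
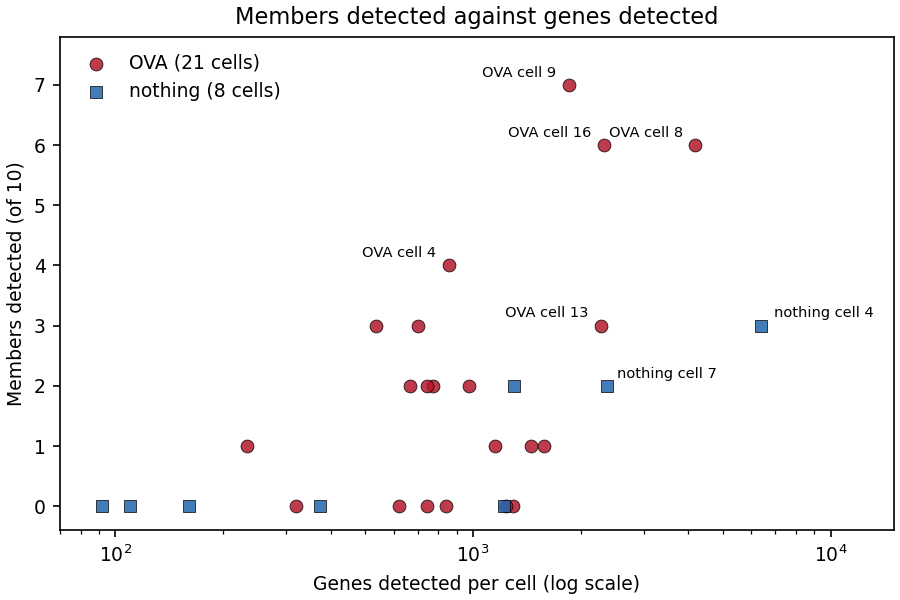
Each point is 1 cell, with genes detected on a log scale on the horizontal axis and the number of the 10 genes detected on the vertical axis, circles for OVA and squares for nothing. OVA cells 9, 8 and 16 stand highest at 7, 6 and 6, and nothing cell 4 reaches 3 at 6385 genes.

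Other gene groups give a background for these shares. The 10 genes filled 21.0% of their entries in OVA cells and 8.75% in nothing cells, while protein-coding genes were detected at a mean of 3.36% and 4.03%. A list of 12 housekeeping genes filled 29.0% and 9.38%, and 11 heat shock genes 26.8% and 7.95%. For 30 other immediate early genes the share was 7.78% and 1.25%, and for 12 other AP-1 and bZIP partners 8.33% and 6.25%. The nothing cells thus had the lower share in these lists too. The other way round, the share was 5.03% in OVA and 6.25% in nothing cells for the Ras and MAP kinase cascade, 6.35% and 6.67% for SRF, TCF, CREB and MEF2 genes, 6.55% and 9.38% for calcineurin and NFAT genes, and 1.67% and 1.88% for AP-1 and NFAT target genes. The part of RNA amount in these shares was not tested.

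Because AP-1 works as a dimer, the presence of both partner families in 1 cell was counted. A Fos-family transcript (Fos, Fosb or Fosl2) was detected in 7 of the 21 OVA cells (33.3%, 14.6% to 57.0%), against 3 of the 8 nothing cells (37.5%, 8.52% to 75.5%). A Jun-family transcript (Jun, Junb or Jund) was detected in 12 of the 21 OVA cells (57.1%, 34.0% to 78.2%), against 2 of the 8 nothing cells (25.0%, 3.19% to 65.1%). Both families together were found in 5 of the 21 OVA cells (23.8%, 8.22% to 47.2%), against 2 of the 8 nothing cells (25.0%, 3.19% to 65.1%). The cells with both were OVA cells 4, 8, 10, 14 and 16 and nothing cells 4 and 7.

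Jun-family transcripts without any Fos-family transcript were found in 7 OVA cells and 0 nothing cells, and the reverse in 2 OVA cells and 1 nothing cell. With detection at 10 TPM, cells with both families numbered 4 in place of 7, and without the cells over 2000 genes, an alternative chosen after seeing the data, they numbered 3.

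Of the 45 pairs of the 10 genes, 12 were never seen in the same cell and 12 were seen in at least 3 cells. Junb and Ier2 shared most, with 6 cells, which is 6 of 11 Junb cells and 6 of 8 Ier2 cells. All 6 were OVA cells, as any pair with Ier2 had to be, since no nothing cell held Ier2. Junb was found with Jun in 5 cells and with Jund in 5. All 3 Fos cells also held Junb, at 8.94, 61.3 and 35.9 TPM. All 3 Klf6 cells held Jun, Junb and Jund. These were OVA cells 8, 9 and 16, with 4180, 1850 and 2320 genes detected, all among the 4 OVA cells with most genes. No background for pairs was computed, and the part of gene number in these pairs was not tested. Only 4 pairs were seen in nothing cells. Few pairs could occur there, since only 3 nothing cells held any of the 10 genes. None of those cells held Fos, Jund, Ier2, Nr4a2 or Klf6.

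**Figure D4:**
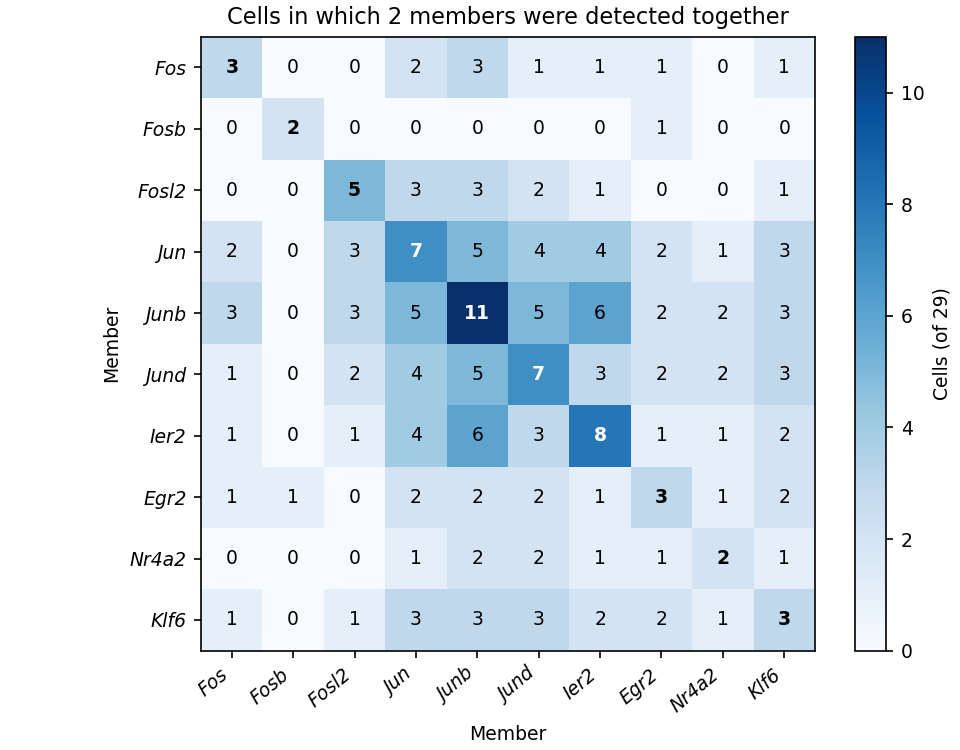
Each square gives the number of the 29 cells in which the 2 genes of its row and column were both detected, and the diagonal gives the cells of 1 gene. Junb with Ier2 is the fullest pair at 6 cells, and Fosb shares a cell only with Egr2, in nothing cell 5.

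Cell type markers are given here beside these counts for some of the cells. OVA cells 8, 9, 13 and 16 were also the 4 OVA cells with most genes detected. OVA cell 8, with 6 of the 10 genes, had 10 of 11 neutrophil markers at 20551 TPM in sum and 1 of 14 T cell markers. OVA cells 9 and 16, with 7 and 6 of the genes, held 3 and 4 T cell markers beside 4 and 6 neutrophil markers. OVA cell 13, which held Junb, Jund and Nr4a2, had 5 T cell markers and 0 neutrophil markers. OVA cells 4 and 14, which had the highest Fos levels, had 0 markers of either list. Of the 4 cells with a T cell receptor constant gene, 3 held at least 2 of the 10 genes, and OVA cell 5 held 0. OVA cells 2 and 18 held 0 of the 10 genes beside 3 and 4 neutrophil markers. Nothing cell 4 held 3 of the 10 genes beside 6 neutrophil and 2 T cell markers. The part of cell type in the counts was not tested.

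The rest of the pathway was sparse. Among 12 other AP-1 and bZIP partners 3 were detected in at least 3 cells, 2 of them higher in OVA cells and 1 lower. Over all 12 listed, 4 were higher, 3 lower and 5 listed at 0 throughout. Atf4, a stress-response bZIP factor, was detected in 11 OVA and 2 nothing cells with a difference of 1.57. Mafg was at 0.63 and Maf at -0.83, with its highest level, 78.4 TPM, in nothing cell 4. Batf, a JUN partner of T cells, stood at 33.2 TPM in OVA cell 16 and 118 TPM in nothing cell 4, and Fosl1 was listed at 0 in all cells.

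Of 30 other immediate early genes, 20 were higher in OVA cells, 1 was lower and 9 were listed at 0 in all cells. Over all 19897 genes with any value 54.8% were higher. Most of the 20 were detected in at most 2 cells. Of all genes detected in exactly 1 or 2 cells, 56.8% and 39.4% were detected in OVA cells alone. Only 8 of the 30 were detected in at least 3 cells, 7 of them higher, beside 2098 of all 3717 such genes. The median of the 8 was 0.76, which was 0.49 without OVA cell 13. Nfkbia, the feedback inhibitor of NF-kappaB, differed by 1.31 and Zfp36, which speeds the decay of AU-rich messengers, by 1.28. The Zfp36 relative Zfp36l1 differed by 0.80. None of the 3, which were named for their large differences, was detected in a nothing cell. The same held for 12.8% of all genes detected in 7 cells, as Zfp36 was, for 21.8% of those in 5 cells, as Nfkbia was, and for 26.3% of those in 4 cells, as Zfp36l1 was.

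The nearest relatives of Egr2 and Nr4a2 were also rare. Egr1 stood at 42.1, 6.62 and 3.94 TPM in OVA cells 16, 8 and 1 and at 12.7 TPM in nothing cell 8, a difference of 0.04. Egr3 was detected only in OVA cell 4, at 15.8 TPM. Nr4a3 was detected at 10.3 TPM in OVA cell 9, beside Nr4a2, and at 2.43 TPM in OVA cell 17. Nr4a1, the NUR77 gene, was listed at 0 in all cells.

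Upstream, 4 of 18 genes of the Ras and MAP kinase cascade were detected in at least 3 cells, 1 higher and 3 lower, among them Mapk8, which encodes the Jun kinase JNK1, at -0.44. Of 15 SRF, TCF, CREB and MEF2 genes 5 were, 2 higher (Elk4 at 0.57, Creb1 at 0.41) and 3 lower, with Mef2a at -0.68. Of 8 calcineurin and NFAT genes 3 were, all lower as deposited: Ppp3cb at -0.53, Nfatc3 at -0.36 and Ppp3ca at -0.29. With size factors Mapk8 (0.28), Mef2a (0.09), Ppp3cb (0.08), Nfatc3 (0.15) and Ppp3ca (0.34) all lay above 0. Relative to the median of the 3717 genes, which moved from 0.10 to 0.48 with that scaling, these 5 genes were lower under both, at -0.39 to -0.78 as deposited and -0.14 to -0.40 with size factors. Over all listed genes, 6 were higher and 7 lower in the kinase list, 5 and 6 in the SRF to MEF2 list, and 3 and 4 in the calcineurin list. The median of the calcineurin and NFAT list was -0.36, and 0.16 without nothing cell 4.

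Of 20 AP-1 and NFAT target genes, 13 were listed at 0 in all cells and 1, Cd69, was detected in at least 3. Cd69, an early activation marker of T cells, stood at 627, 11.9 and 2.55 TPM in OVA cells 13, 9 and 4, each of which also held Junb. In OVA cells 7 and 10, which did not hold Junb, Cd69 lay under the detection limit, at 0.621 and 0.466 TPM. Junb was detected in 9 of the 21 OVA cells, and no background for this match was computed. The Cd69 difference was 0.76, and 0.34 without OVA cell 13. Over all 20 genes, 4 were higher in OVA cells and 3 lower. The lower ones, named after their values were seen, were the cytokine genes Il2 (-0.70) and Tnf (-0.60), each detected in 1 nothing cell and 0 OVA cells, and the chemokine gene Ccl4 (-0.60), detected in 1 cell of each group.

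Of the 3717 genes detected in at least 3 cells 2098 were higher in OVA cells. All 9 heat shock genes among the 3717 were higher, with a median of 0.94, and so were all 9 housekeeping genes, with a median of 1.26. The highest were the chaperone genes Hsp90aa1 (4.20) and Hsp90ab1 (3.58), the actin gene Actb (3.31), the elongation factor gene Eef1a1 (2.58) and the ribosomal gene Rplp0 (2.51), and Hspa1a stood at 1.31. Over all listed genes, 9 of 11 heat shock genes were higher and 1 lower, with a median of 0.87, and 11 of 12 housekeeping genes were higher and 0 lower, with a median of 1.08. The median of the 10 genes was 0.55. Among genes detected in at least 3 cells, the heat shock median was 0.62 without OVA cell 13. Without the cells over 2000 genes it was 0.32 and the housekeeping median 0.62, beside 0.39 for the 10 genes.

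**Figure D5:**
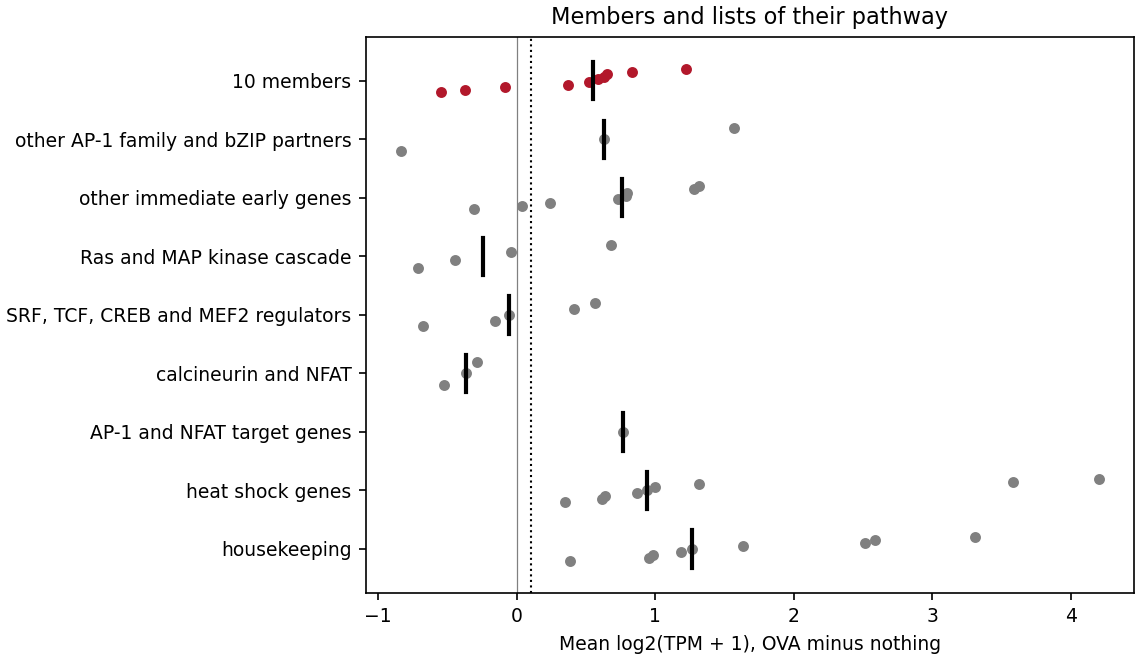
Each point is the mean log2(TPM + 1) of OVA cells minus nothing cells of 1 gene, for all 10 genes described here and for the genes of the other lists detected in at least 3 cells. Bars mark the median of each list, and the dotted line that of the 3717 genes. The heat shock and housekeeping genes plotted all lie above 0, and the calcineurin and NFAT genes lie below 0 as deposited.

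The genes whose detecting cells overlapped most with the 11 Junb cells, out of 2489 protein-coding candidates other than the 10 genes, were Rps9, Gnas, Ccnl1, mt-Nd6 and Gm9844. The overlap was 9 of 13 cells with either gene for Rps9 (Jaccard index 0.692), 7 of 11 for both Gnas and Ccnl1 (0.636), 10 of 16 for mt-Nd6 (0.625) and 8 of 13 for Gm9844 (0.615).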

How the data were processed

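Expression was measured by SMART-seq2 in 29 single cells, grouped by the labelled treatment. The authors deposited TPM, 1 column per cell, and every column sums to 1000000 over 54838 genes, 92 spike-ins and 3 transgenes. HISAT2 2.1.0, StringTie 1.3.5, featureCounts 1.6.4 and, as builds, GRCm38 and mm10 appear in the submitters' processing notes, with no role for each. Read depth is unknown, so precision is given only as the spread over cells and as Clopper-Pearson 95% intervals for shares of cells. A share of 0 carries the limit that 3 cells of the total allow.

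From the deposited TPM a gene was called detected at 1 or more and kept when detected in at least 3 cells. The difference was the mean of log2(TPM + 1) in OVA cells minus that in nothing cells, called at 1 or more. Each group is 1 sample, so no test was made. The 10 genes and all lists were chosen with earlier results of these data known. Named genes were the 10, up to 3 kept genes with the largest absolute difference per list, Egr1, Egr3, Nr4a1, Nr4a3, Batf and Fosl1, and the 5 kept protein-coding genes closest to the most widely detected of the 10 by shared cells. Some genes that this rule names are left out of the text. Alternatives were pseudocounts of 0.1 and 10, other detection and filter limits, rescaling without spike-ins, size factors over 11 genes detected in at least 26 cells, smaller sets of cells, and omission of each single cell. Doublets were not called, and the labels give no batch. Calculations used Python 3.11.15, pandas 2.3.3 and SciPy 1.17.1. Only the calculation of group differences was checked, on shuffled values with known shifts added. Gene positions are from GENCODE M21 (GRCm38), in which 54723 of 54838 genes had the same identifier and chromosome, and promoter sequences are from RefSeq (GRCm38.p6).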

Additional observations from a re-analysis of the deposited data

Results flagged for a closer look

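In the 8 nothing cells, 5 values stood far from the rest of their group, with a gap to the nearest other cell, as a share of the range, above Dixon's 95% critical value. TPM values were compared on the log2(TPM + 1) scale. In all, 8 such sets of values were tested. The critical value assumes normally distributed values, which sets made mostly of 0 values are not, so no chance rate is given. For Fosb (1.12 TPM, nothing cell 5), Jund (0.928 TPM, nothing cell 7) and Egr2 (53.4 TPM, nothing cell 5) all other nothing cells were listed at 0, so any value would stand apart. Jun stood at 1.92 TPM in nothing cell 4, with a gap of 0.612 of the log2 range to nothing cell 7 (0.516 TPM). On the TPM scale that gap was 0.732, and the highest nothing values of Fosl2 (cell 4, 0.796) and Junb (cell 7, 0.696) would also have passed, so the number depends on the scale. Nothing cell 4 also had 6385 genes detected, with a gap of 0.639 of the range. Nothing cell 5 had 1297 genes detected, 82.3% of its TPM in spike-ins, and a receptor-gene ratio of 0.924.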

How the results depend on the processing

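The median difference of the 10 genes (0.55) stayed above 0 in all settings run, from 0.17 with a pseudocount of 10 to 0.94 with a pseudocount of 0.1 or with size factors, and from 0.34 to 0.64 with each cell left out in turn. Between 7 and 9 of the 10 genes were higher in OVA cells with each cell left out in turn, and 6 were without the cells over 90% spike-ins or without those under 500 genes. A difference of 1 or more upward (Ier2 alone) was reached by 4 of the 10 with a pseudocount of 0.1, where 28% of the 3717 genes reached it. With size factors it was also 4 of the 10, beside 18.4% of the 3717 genes. Without spike-ins it was 2 of the 10, beside 17.1%, and with a pseudocount of 10 it was 0, beside 2.45%. The difference in genes of the 10 detected per cell (1.22) ran from 0.975 to 1.52 with each cell left out in turn, and was 0.357 with detection at 10 TPM. Cells with both a Fos-family and a Jun-family transcript (7) numbered 4 with detection at 10 TPM, 3 without cells over 2000 genes, and 6 to 7 with each cell left out in turn. Of 370 settings for single genes of the 10, 8 gave a sign other than that reported. All lay within 1 SD over cells of the reported value. That SD is larger than each reported difference, so a difference could vanish and still lie within it. Most of these settings also leave out only a single cell, so this count does not measure stability. The median over genes detected in at least 10 cells was 1.14, and of the 10 genes only Junb (0.37) passed that filter. Leaving out OVA cell 8 and nothing cell 4 together, leaving out cells over 2000 genes, and taking only the 8 genes that passed the filter (median 0.61) were chosen after seeing the data. No paired analysis was possible because the labels give the groups no shared replicate numbers. With unknown depth and few cells, a transcript listed at 0 cannot be called absent.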

Other observations

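The genes that overlap members of the Jun family on the opposite strand were themselves rarely detected. Junos, antisense to Jun, stood at 159 TPM in OVA cell 10, where Jun was at 1.17 TPM, and at 13.2 TPM in OVA cell 5, where Jun was at 0.275 TPM. In the other cells with Jun, Junos was listed at 0. Gm11175, antisense to Jund, stood at 4.26 and 1.06 TPM in OVA cells 8 and 13, both with Jund detected. Prdx2, which overlaps Junb, was detected only in OVA cell 8, at 44.5 TPM, beside 3.72 TPM of Junb.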
